A study of Homo sapiens with 6 samples.

Results

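The glycolysis and hypoxia response genes described here are 47 genes chosen by name, out of 34834 genes with a quantified transcript, and they were followed in SKOV3 cells in which the long noncoding RNA DNM3OS was knocked down. They cover the import of glucose, each step from glucose to lactate, the entry of pyruvate into mitochondria, the pentose phosphate branch, the oxygen-sensing machinery and genes that respond to low oxygen. Of the 47 members, 40 had enough counts to be tested.

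SKOV3 is a human epithelial ovarian cancer line. The DNM3OS knockdown group was 3 samples of SKOV3 cells transfected with a siRNA pool against DNM3OS, and the control group was 3 samples of the same line given a pool of nontargeting siRNA. Both groups received 50 nM siRNA with lipofectamine 2000 and, by the study's methods, were harvested at 48 h. Both grew in RPMI1640 medium with serum, and the labels name no low-oxygen treatment. All samples are of 1 cell line. The labels do not say whether the 3 samples of a group were separate cultures, so a p-value here measures the spread between samples, which may be technical.

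Glycolysis splits glucose into pyruvate in the cytosol and yields ATP without oxygen, and lactate dehydrogenase then turns pyruvate into lactate. Many tumour lines run this route at a high rate even with oxygen present. Many of the same enzymes are targets of the hypoxia-inducible factors, dimers of an oxygen-labile alpha subunit with ARNT. In the presence of oxygen the EGLN prolyl hydroxylases mark the alpha subunit and VHL directs its destruction. When oxygen falls the dimer binds a short core sequence near its target genes.

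The samples held between 1610937 and 1995888 estimated counts, so that 3 counts corresponded to between 1.61 and 1.97 CPM (counts scaled to a common library size, before the TMM scaling used below). DNM3OS itself was not analysed here, as 0 of its 6 annotated transcripts were matched, so the values used here give no check of the labels by the targeted RNA. Of the markers of the line, KRT8 had 1195 to 2566 counts a sample and ERBB2 311 to 872. KRT19 had 19 to 184, KRT18 38 to 165, PAX8 26 to 46 and EPCAM 16 to 32. KRT7 had 4 to 12, while MUC16 and WT1 had at most 4, and none of these was tested. Among 12 markers of other cell types, CD14, HBB and ALB had 0 counts in every sample, CD3E, VWF and LUM had at most 3, and the other 6 had counts in every sample, PTPRC 91 to 148, CD68 40 to 67, DCN 29 to 58, PECAM1 24 to 62, LYZ 6 to 29 and COL1A1 10 to 19. The 82 ribosomal protein genes held 0.228%, 0.374% and 0.388% of counts on genes in knockdown samples 1, 2 and 3, and 0.527%, 0.314% and 0.511% in controls 1, 2 and 3. Knockdown 1 and control 1 therefore lay at the ends of this share, and the results that move with it are given below with it. Fragment length, read from the effective lengths, was 151.9 to 159.3 bases.

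The core that hypoxia-inducible factors bind is written ACGTG, and it was searched on both strands in the 300 bases around each transcript start in RefSeq (GRCh38.p14). At least 1 match lay in 27 of the 66 promoters found for 40 members, or 40.9%, against 21.4% of all 35116 promoters. For the variant GCGTG the shares were 42.4% and 36.5%. No promoter was at hand for SLC2A3, PFKFB2, SLC16A1, VHL, VEGFA, BNIP3L and NDRG1. A match is a run of letters and not a measured binding site. The 5 windows of 30 bases that follow belong to members whose levels are described below, from different steps of the route, and are shown 5′ to 3′ on the strand of the gene with 1 match in capitals.
GAPDH: ctctgcggggtcACGTGtcgcagaggagcc
LDHA: cgtgggttcccgCACGTccgccggcccccc
HK2: aatgggcgtgcgCACGTcactgatccggag
PGD: ggggtgggcgggCACGTttgcctcggatgg
CA9: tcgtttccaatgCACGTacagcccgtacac
The capitals in the GAPDH window (chr12:6535172-6535201, plus strand) lie at bases -80 to -76 from a transcript start. There the motif is part of the palindrome CACGTG, which matches on both strands. In the other 4 windows the match in capitals is on the opposite strand, so the capitals show its reverse complement. LDHA and HK2 promoters also hold the palindrome, but not whole within the windows shown. They lie at -73 to -69 for LDHA (chr11:18394478-18394507, plus strand) and -48 to -44 for HK2 (chr2:74834067-74834096, plus strand). For PGD they lie at -145 to -141 (chr1:10398907-10398936, plus strand) and for CA9 at -18 to -14 (chr9:35673898-35673927, plus strand). The GAPDH and PGD windows lie inside the annotated genes, which begin at 6534512 and 10398592. The transcript starts used for these genes are therefore not the first base of the gene.

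None of the 40 tested members passed the threshold of a 2-fold change with an adjusted p below 0.05 in the edgeR exact test, and the adjusted p was 1 for each. Over all 11814 genes tested, 0.00846% were called lower, which is 1 gene, and 0% were called higher. At an unadjusted p below 0.05 there were 2 members, CA12 and PKM, against 2.92% of all genes. The count called was also 0 with the edgeR quasi-likelihood test and with DESeq2, with 2 members at an unadjusted p below 0.05 in each. The values below are therefore a description of levels and of their spread.

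The differences leaned to one side. The log2 fold change, knockdown minus control, was below 0 for 27 of the 40 tested members, against 49.4% of all genes tested. Its median was -0.32 over the members and 0.0042 over all genes. This median rested on few samples. It was -0.088 without knockdown 1, -0.13 without control 1 and -0.48 without control 2. Members whose CPM did not overlap between the groups numbered 2, against 7.97% of all genes. CA12 was lower in every knockdown sample, as were 3.56% of all genes, and P4HA2 higher, as were 4.42%.

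**Figure D1:**
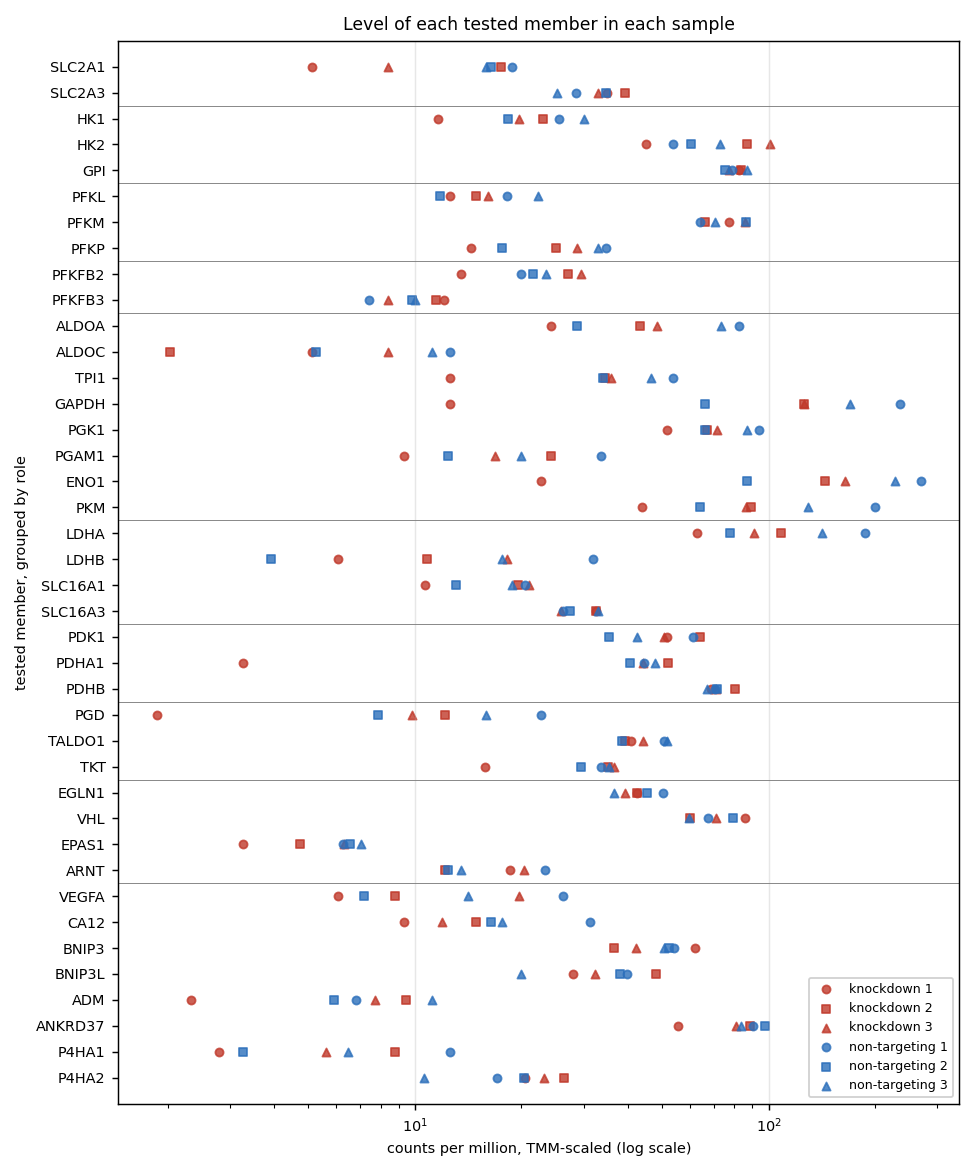
CPM after TMM scaling (log axis) of the 40 tested members in the 6 samples, grouped by role from glucose uptake at the top to hypoxia targets at the bottom, with red for knockdown, blue for control and the shape for the replicate. Knockdown 1 is the lowest sample for 23 members and for 14 of these control 1 is the highest, while the groups are separate only for CA12 and P4HA2.

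**Figure D2:**
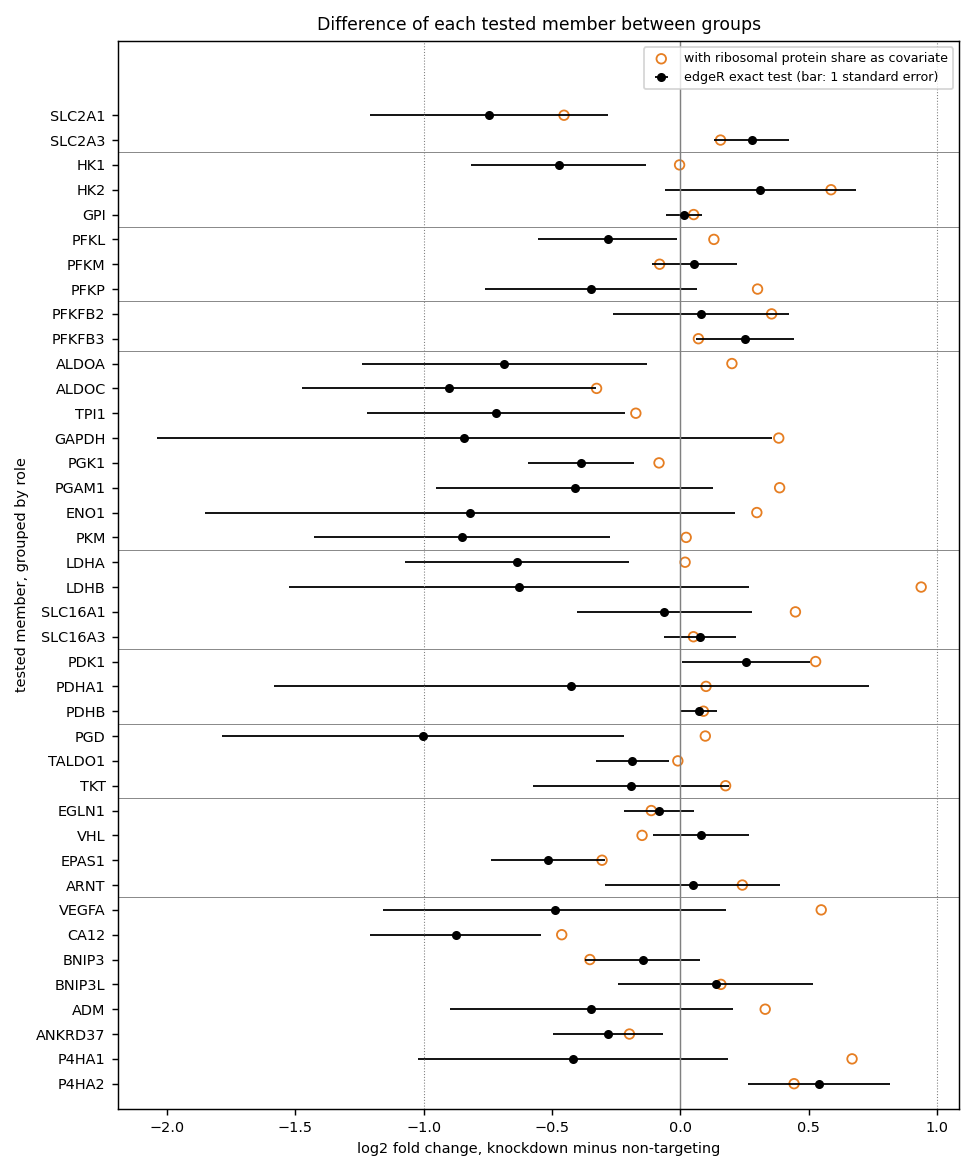
Log2 fold change of the 40 tested members, knockdown minus control, with 1 standard error as the bar (n = 3 and 3), and open circles for the same value with the ribosomal protein share as a covariate. The 8 members of lower glycolysis all lie below 0 in the black points, and 3 of them do in the open circles.

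Glucose enters the cell through the facilitative transporters. SLC2A1, the widely expressed GLUT1, had 5.12, 17.6 and 8.42 CPM in knockdown samples 1, 2 and 3 and 18.8, 16.4 and 15.9 CPM in controls 1, 2 and 3, the order kept below. Knockdown 2 lay among the controls and the other knockdown samples lay below them, with a log2 fold change of -0.75 ± 0.46 (SE, n = 3 and 3). SLC2A3, the high-affinity GLUT3, had 34.9, 39.2 and 33.0 CPM in knockdown and 28.5, 34.7 and 25.3 CPM in control samples. Control 2 lay among the knockdown samples, and the log2 fold change was 0.28 ± 0.15. Of the counts of SLC2A3, 85.6% were on transcripts annotated as retained introns.

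Hexokinases trap glucose as glucose 6-phosphate, and the isomerase GPI makes fructose 6-phosphate of it. HK2, the inducible hexokinase of many tumours (chr2:74834127-74893359), had 45.1, 87.1 and 101 CPM in knockdown and 53.5, 60.2 and 72.9 CPM in control samples. Knockdown 1 was the lowest of all 6 and the other knockdown samples were the highest, so that the log2 fold change of 0.31 ± 0.37 was smaller than its error. HK1, the housekeeping form, had a log2 fold change of -0.47. GPI varied little, from 75.3 to 87.1 CPM over the 6 samples.

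Phosphofructokinase commits the sugar to glycolysis. PFKM, the muscle form (chr12:48105139-48146404), had 77.2, 66.2 and 85.6 CPM in knockdown and 63.8, 86.4 and 70.6 CPM in control samples, with the groups interleaved and a log2 fold change of 0.05 ± 0.17. PFKL and PFKP, the liver and platelet forms, had log2 fold changes of -0.28 and -0.35. The PFKFB enzymes set the level of fructose 2,6-bisphosphate, the activator of phosphofructokinase. PFKFB3 had 12.1, 11.5 and 8.42 CPM in knockdown and 7.40, 9.82 and 10.0002 CPM in control samples, again interleaved, with a log2 fold change of 0.25 ± 0.19. PFKFB2 had a log2 fold change of 0.08, and PFKFB4 was not tested, with at most 1 count in any sample.

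Lower glycolysis runs from aldolase to pyruvate kinase. All 8 tested of its 9 members had a log2 fold change below 0, from -0.90 to -0.39, with a median of -0.77, against a median of 0.0042 over all genes. For 0 of the 8 were the groups separate, and none passed the test. The median was -0.33 without knockdown 1, -0.43 without control 1 and -0.70 without control 3. It was -0.85 without knockdown 2, -0.98 without knockdown 3 and -1.09 without control 2.

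GAPDH, which oxidises glyceraldehyde 3-phosphate (chr12:6534512-6538374), had 12.6, 126 and 126 CPM in knockdown and 236, 66.1 and 170 CPM in control samples. Knockdown 1 was 10.002-fold below the highest sample of its own group, control 2 lay below the other knockdown samples, and the log2 fold change of -0.84 ± 1.20 was smaller than its error. ENO1, the main enolase (chr1:8861000-8879190), had 22.8, 145 and 165 CPM in knockdown and 270, 87.1 and 228 CPM in control samples. The order of the 6 samples was the same as for GAPDH at both ends, and the log2 fold change was -0.82 ± 1.03.

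PKM, the pyruvate kinase that makes the last ATP of the route (chr15:72199029-72231819), had 43.7, 89.1 and 86.3 CPM in knockdown and 201, 64.2 and 129 CPM in control samples. Only control 2 lay within the range of the knockdown group. The log2 fold change was -0.85 ± 0.58, with an unadjusted p of 0.0387 and an adjusted p of 1 in the edgeR exact test. ALDOC, an aldolase best known from brain, had 5.12, 2.03 and 8.42 CPM in knockdown and 12.5, 5.24 and 11.2 CPM in control samples, with a log2 fold change of -0.90 ± 0.57. Its 2.03 CPM in knockdown 2 was 3 counts.

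The other members of lower glycolysis showed the same order of samples at the ends. Knockdown 1 was lowest and control 1 highest for ALDOA, TPI1, PGK1 and PGAM1, whose log2 fold changes were -0.69, -0.72, -0.39 and -0.41. ENO2, the neuronal enolase, was not tested and had 5 or 6 counts in every sample.

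Pyruvate is reduced to lactate by lactate dehydrogenase and leaves through monocarboxylate transporters. LDHA, the subunit that favours lactate formation (chr11:18394560-18408425), had 62.8, 109 and 91.2 CPM in knockdown and 187, 77.9 and 142 CPM in control samples. Control 2 lay within the knockdown range and the other controls above it, with a log2 fold change of -0.64 ± 0.44. LDHB, the other subunit, spread 8.12-fold within the control group alone, and its log2 fold change was -0.63 ± 0.90. The transporters SLC16A1 and SLC16A3 had log2 fold changes of -0.06 and 0.08.

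The pyruvate dehydrogenase complex feeds pyruvate into the citric acid cycle, and PDK1, a hypoxia-inducible kinase, switches it off. PDK1 had 51.6, 64.2 and 50.5 CPM in knockdown and 60.9, 35.4 and 42.4 CPM in control samples, with control 1 among the knockdown samples and a log2 fold change of 0.26 ± 0.25. PDHA1, the catalytic alpha subunit (chrX:19343893-19361718), had 3.26, 52.0 and 44.2 CPM in knockdown and 44.4, 40.6 and 47.6 CPM in control samples. A single sample, knockdown 1, set its log2 fold change of -0.42 ± 1.16, which was 0.13 without it. PDHB had a log2 fold change of 0.07, and PDK3 was not tested, with at most 1 count in any sample.

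The pentose phosphate pathway draws on glucose 6-phosphate to make NADPH and ribose. PGD, its second NADPH-producing enzyme (chr1:10398592-10420511), had the lowest log2 fold change of the members, -1.003 ± 0.785. It had 1.86, 12.2 and 9.82 CPM in knockdown and 22.8, 7.86 and 15.9 CPM in control samples, so that control 2 lay within the knockdown range. The value of knockdown 1 was 4 counts, near the floor. With each sample left out in turn, the log2 fold change of PGD ran from -1.48 without knockdown 2 to -0.49 without knockdown 1. TALDO1 and TKT, which shuttle carbon back to glycolysis, both had log2 fold changes of -0.19.

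Oxygen sensing had 4 tested members, with 2 log2 fold changes below 0 and 2 above. EPAS1, which encodes HIF-2alpha, had 3.26, 4.73 and 6.32 CPM in knockdown and 6.27, 6.55 and 7.06 CPM in control samples, and only knockdown 3 reached the control range. Its log2 fold change was -0.52 ± 0.22. EGLN1, the main oxygen sensor among the hydroxylases, had a log2 fold change of -0.08, VHL 0.08 and ARNT 0.05. EGLN3 had 0 to 2 counts a sample and was not tested.

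The hypoxia targets held both members with separate groups. CA12, a membrane carbonic anhydrase (chr15:63321378-63381846), had 9.30, 14.9 and 11.9 CPM in knockdown and 31.3, 16.4 and 17.6 CPM in control samples. Every knockdown sample lay below every control, with a log2 fold change of -0.88 ± 0.33, an unadjusted p of 0.0264 and an adjusted p of 1 in the edgeR exact test. The exact two-sided permutation test gave p = 0.1, the smallest that 3 against 3 samples allow.

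P4HA2, a subunit of the prolyl hydroxylase that matures collagen (chr5:132190147-132295315), was the member with the highest log2 fold change, 0.54 ± 0.28. It had 20.5, 26.3 and 23.2 CPM in knockdown and 17.1, 20.3 and 10.6 CPM in control samples, so that knockdown 1 lay just above control 2. The exact two-sided permutation test again gave p = 0.1. Of its exonic bases, 5.41% lie under exons of P4HA2-AS1 on the other strand, but 0% of those of its leading transcript. That transcript held 37.9% of its counts and has no defined coding sequence, and protein-coding transcripts held 24.6%. Its relative P4HA1 had a log2 fold change of -0.42 ± 0.60.

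VEGFA, the angiogenic growth factor, had 6.05, 8.78 and 19.6 CPM in knockdown and 26.2, 7.20 and 14.1 CPM in control samples. The groups were interleaved, and the log2 fold change of -0.49 ± 0.67 was 0.07 without control 1. The mitophagy receptors BNIP3 and BNIP3L had log2 fold changes of -0.15 and 0.14, the vasodilator peptide gene ADM -0.35 and ANKRD37 -0.28.

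Of the most used hypoxia markers, several were near the floor of this quantification. CA9, the carbonic anhydrase induced most sharply by low oxygen, had 5, 1 and 6 counts in knockdown and 8, 3 and 2 counts in control samples. NDRG1 had 3, 6 and 8 counts in knockdown and 18, 4 and 9 counts in control samples, and DDIT4, an inhibitor of mTORC1 signalling, had 1 to 10 counts. These 3 genes did not pass the filter on low counts. With a filter of 1 CPM in 3 samples or none, all 11 hypoxia targets were tested and 0 were called.

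Per transcript length the order of the members was led by PFKM. Its level was 242 ± 36.2 TPM in knockdown and 229 ± 31.5 TPM in control samples (SD, n = 3), rank 290 among 19439 protein-coding genes. ENO1 followed with 139 ± 82.0 and 205 ± 82.9 TPM, GAPDH with 114 ± 82.6 and 219 ± 123 TPM, PKM with 115 ± 15.4 and 204 ± 61.3 TPM and LDHA with 98.6 ± 11.3 and 146 ± 43.4 TPM. In control samples the first 4 did not differ from one another beyond their spread. In knockdown samples PFKM, at 200 TPM or more, lay above ENO1, GAPDH and PKM, which reached at most 189, 164 and 133 TPM. In TPM, 3 members had groups that did not overlap, PKM, PGD and CA12, each lower in knockdown samples, against 4.01% of all genes lower, 3.93% higher and 7.94% in either direction. By CPM these members were CA12 and P4HA2.

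These levels mix transcripts of different kinds. The leading transcript of PFKM, with 25.9% of its counts, is 616 bases long and annotated as a target of nonsense-mediated decay. For 25 of the 40 tested members the leading transcript was protein-coding. Exon bases under exons of a gene on the other strand occurred in 20 tested members, or 50%, against 45.3% of all genes tested. The leading transcript of GAPDH lies for 38.9% of its length under an opposite-strand gene. The libraries were stranded, but the strand option of the quantification is not given in the sources used here. Whether it kept reads of a member apart from those of a partner on the other strand is therefore not known. A single gene, PLLP, held from 15.7% of counts on genes in knockdown 1 to 22.2% in knockdown 2. All members together held from 0.130% in knockdown 1 to 0.225% in control 1. The levels and the order of members given here are those of this quantification. Whether they are the levels of SKOV3 cells was not tested, and neither was the cause of these shares.

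Some members' levels followed the ribosomal protein share across the 6 samples. Pearson's r between log2 CPM and that share was at least 0.8 for 18 of the 40 members, against 13.6% of all genes, and at most -0.8 for 0 members, against 9.86%. For 9 members r was below 0. Without knockdown 1 and control 1, the samples farthest from the median share, r was at least 0.8 for 14 members, against 12.8% of all genes, and at most -0.8 for 4, SLC2A3, EGLN1, BNIP3L and P4HA2, against 11.1%. Of the 18 members, PGAM1, LDHB, SLC16A1, VEGFA, CA12 and P4HA1 had r below 0.8 in these 4 samples, from 0.325 for CA12 to 0.764 for LDHB, so that for these 6 an r of 0.8 rested on the samples left out. In exact permutation tests, the unadjusted p of r was below 0.05 for 18 members, against 22.5% of all genes, and that of Spearman's rho for 13, against 15.1%. With adjustment over the relations of all 11814 genes, 0 passed by either measure. With 6 samples the smallest exact permutation p possible is 0.00139 for r and 0.00278 for rho. The lowest adjusted p of any gene was 0.0649 for r and 0.0907 for rho, so 0 passing partly reflects the number of samples. Both measures come from the same libraries and share their depth and composition.

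ALDOA had r = 0.988 and Spearman's rho = 1, with exact permutation p-values of 0.00139 and 0.00278, adjusted over all genes to 0.0649 and 0.0907. Without knockdown 1 and control 1, r was 0.977. GAPDH had r = 0.908 (exact permutation p = 0.00278, adjusted 0.0720) and rho = 0.943 (exact permutation p = 0.0167, adjusted 0.153), and r = 0.889 without those samples. At the other end VHL had r = -0.773 and rho = -0.714 (exact permutation p = 0.0708 and 0.136, adjusted 0.259 and 0.391), and r = -0.746 without them. SLC2A3 had r = -0.751 and rho = -0.771 (exact permutation p = 0.0861 and 0.103, adjusted 0.286 and 0.348), and r = -0.840 without them.

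**Figure D3:**
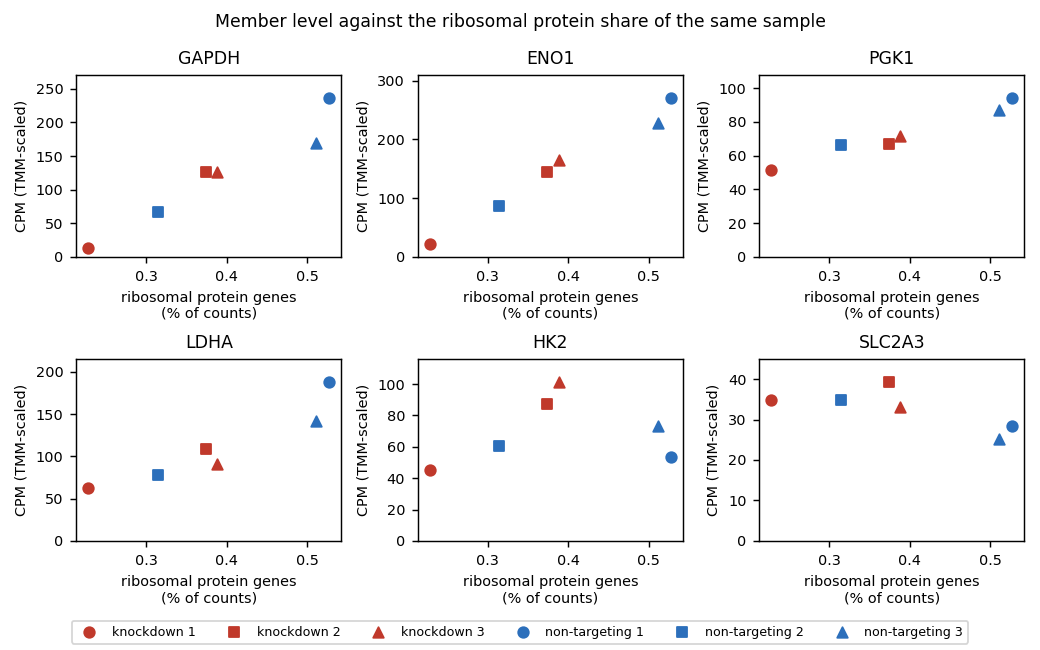
CPM after TMM scaling (vertical axis) against the percent of counts on ribosomal protein genes (horizontal axis) for 6 members, with red for knockdown, blue for control and the shape for the replicate. ENO1 and PGK1 follow the order of the share in all 6 samples, GAPDH and LDHA do so except between knockdown 2 and 3, HK2 has no such order, and SLC2A3 is lowest in the samples with the highest share.

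With the share as a covariate in the edgeR quasi-likelihood fit, 13 members had a value below 0, against 47.7% of all genes, and 27 above. The median was 0.099 over the members and 0.018 over all genes. Of the 40 members, 18 had another sign than before, and the share of all genes that changed sign is not given here. In that fit GAPDH was at 0.38, ENO1 at 0.30 and PKM at 0.02, and 3 of the 8 members of lower glycolysis lay below 0. Again 0 members were called, with 1 at an unadjusted p below 0.05, against 397 of all 11814 genes. CA12 and P4HA2 kept their signs, at -0.46 and 0.44. The part of the share in the members' differences was not tested.

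Knockdown 1 stood at the low end for many members. It was the lowest sample for 23 of the 40, against 29.8% of all genes, and the highest for 3, PFKFB3, VHL and BNIP3, against 28%. For 14 members knockdown 1 was lowest and control 1 highest, against 10.9% of all genes. The median ratio of the highest to the lowest sample of the knockdown group was 1.95 over the members and 1.61 over all genes, and for the control group it was 1.60 and 1.46.

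Several members have pseudogenes that resemble their transcripts, and reads can be split between them. Of 18 members with pseudogenes named after them, 10 had more than 10 counts on these. In all 10 the summed pseudogene level, as a share of all counts before TMM scaling, was highest in knockdown 1. After TMM scaling, values of knockdown 1 are lower (GAPDH 12.6 CPM, against 14.5 before) and those of knockdown 2 higher (126 against 114.5). The order of the pseudogene sums on that scale was not examined. Of the 935 pseudogenes tested among all genes, 47.1% were highest in knockdown 1. That share counts single pseudogenes and not sums per member, so it is not a like-for-like background. Pseudogenes of any kind held 4.28% of the counts of knockdown 1 against 2.70% to 3.34% in the other samples.

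The 65 pseudogenes of GAPDH together had 284, 78 and 88 counts in knockdown and 89, 108 and 93 counts in control samples, where GAPDH itself had 27, 186 and 179 counts and 414, 101 and 289 counts. In knockdown 1, and by a small margin in control 2, the pseudogenes thus held more counts than the gene. The pseudogene of PDHA1 had 35 counts in knockdown 1 and 5 to 14 in the others, while PDHA1 was lowest there. Pseudogenes held 87.2% of the summed counts for BNIP3, 76.1% for PGAM1 and 52.9% for SLC2A3, so the values of these members are uncertain.

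When pseudogene counts were added to the members, 25 of 40 had a log2 fold change below 0, with a median of -0.22. GAPDH was then at -0.35 and PGAM1 at 0.02. Members with separate groups numbered 4, against 7.97% of all genes, and 0 were called. The part of the pseudogene counts in the members' values was otherwise not tested.

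**Figure D4:**
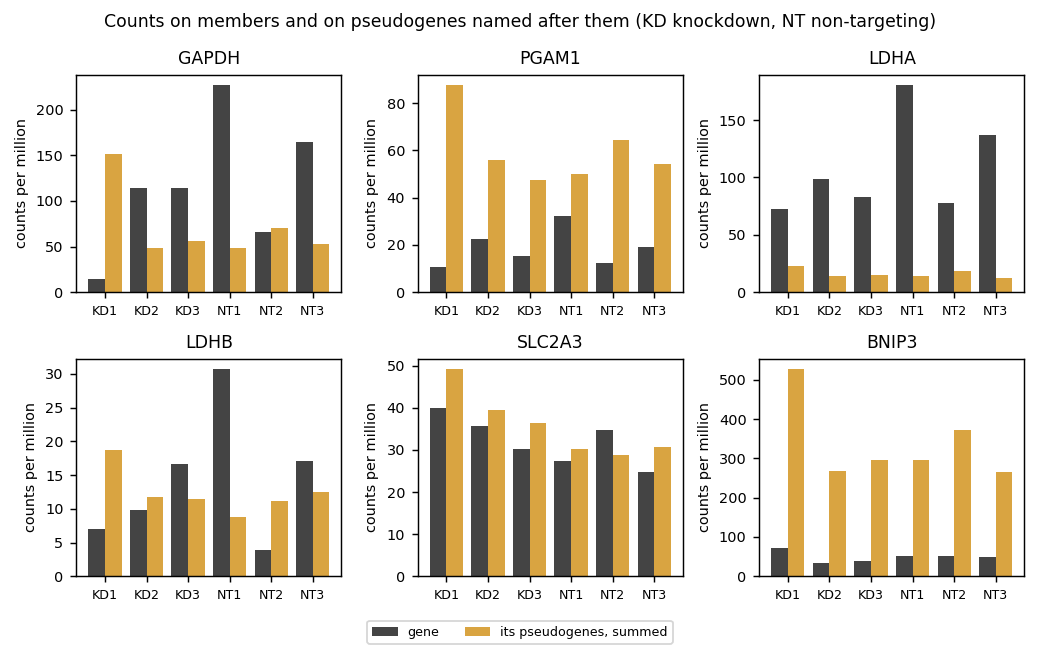
CPM before TMM scaling (vertical axes, from 0) on 6 members (dark bars) and on the pseudogenes named after them, summed (yellow bars), in each of the 6 samples, KD for knockdown and NT for control. For all 6 the yellow bar is highest in knockdown 1, and for GAPDH, PGAM1 and LDHA the dark bar is lowest there.

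Beyond the members, 90 other genes of glycolysis, the pentose phosphate pathway, oxygen sensing and the hypoxia response were listed, and 63 were tested. A log2 fold change below 0 was found for 34 of them, with a median of -0.04, and 0 were called by the edgeR exact test, the quasi-likelihood test or DESeq2. The lowest values were those of IGFBP3, with 0 counts in knockdown 1 and in control 2, at -1.04 ± 1.48, RIOK3 at -0.74 ± 0.16 and CREBBP at -0.73 ± 0.28. The highest were LDHC at 0.71 ± 0.45, TIGAR, which lowers fructose 2,6-bisphosphate, at 0.57 ± 0.15 and LDHD at 0.52 ± 0.25. Groups did not overlap for 7 of the 63, against 7.97% of all genes. RIOK3, CREBBP, PDHX, RPE and ERO1A were lower in every knockdown sample, and TIGAR and KDM4B higher. The adjusted p of each gene named here was 1 in the edgeR exact test.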

How the data were processed

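RNA-seq libraries of total RNA depleted of ribosomal RNA were made with a stranded kit from 6 SKOV3 samples. The authors quantified reads with kallisto 0.43.0 on GRCh38 transcripts and deposited, per transcript, an estimated count without normalization and a TPM, which is scaled to length and depth. The strand option is not given in the sources used here.

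Of 173259 transcripts, 155518 matched GENCODE 44, with 93.6% to 95.2% of counts. Per gene, the estimated counts were added up and rounded, and TPM added up. Groups were taken from the labels. Genes passing filterByExpr (minimum count 10) were TMM-scaled and compared, as in the study, by the exact test of edgeR 4.0.16 in R 4.3.3, with p-values adjusted over 11814 genes. A standard error is that of the difference of mean log2 CPM (prior count 2). Single members had exact permutation tests over 20 assignments. Alternatives were quasi-likelihood with and without a replicate block, DESeq2 1.42.0, RLE scaling, other filters, length-scaled counts, protein-coding genes only, added pseudogene counts and each sample left out. The ribosomal share as covariate was added after seeing the data. Scripts were tested on simulated data.

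Members and lists were chosen with earlier results of these data known. Values in every sample are given for the 5 members with the lowest and the 5 with the highest fold changes, those with separate groups, the 5 with the highest TPM, and the usual readouts of each role. Chosen after their values were seen: PDHA1 and the genes named by r, sample order or pseudogenes.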

Additional observations from a re-analysis of the deposited data

How the results depend on the processing

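No member and no other pathway gene was called in any alternative, leave-outs included. With the replicate number as a block, the edgeR quasi-likelihood fit called 0 members, gave them a median log2 fold change of -0.32 and 0 members an unadjusted p below 0.05. The labels do not say whether the numbers pair the samples. Deviations of same-numbered samples correlated at -0.40, -0.34 and 0.23, which with 3 samples a group cannot settle it. Genes called lower over all genes numbered 0 with DESeq2, with the quasi-likelihood test (replicate block or not) and with the ribosomal share as covariate, 2 with no filter, 2 with a filter of 1 CPM in 3 samples and 4 with length-scaled counts, which also called 2 higher. Members with separate groups numbered 1 with no filter (7.42% of all genes), 1 with the 1 CPM filter (8.46%), 3 with length-scaled counts (8.46%) and 4 with pseudogene counts added (7.97%). Leaving out each sample in turn gave a median log2 fold change of the members from -0.48 to -0.088, 4 to 16 members with separate groups (against 12.8% to 27.8% of all genes, as smaller groups separate more often), 0 to 3 genes called lower and 0 to 1 called higher. It gave PFKM from -0.044 to 0.19 and VEGFA from -1.11 to 0.068. With the ribosomal share as covariate the median was 0.099, against 0.018 over all genes, and 18 of 40 members changed sign. Among them, of those given in every sample, were PGD (0.10), PKM (0.023), GAPDH (0.38), PFKM (-0.081), ENO1 (0.30), LDHA (0.018) and VEGFA (0.55). The causes of these shifts were not tested. Depth limits the 7 untested members and low ones such as ALDOC.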

Other observations

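The members differed in which annotated transcripts held their counts. Retained-intron transcripts held 95.7% of the counts of PDHB, 91.0% of ANKRD37, 77.0% of ARNT, 76.7% of VEGFA, 76.4% of TALDO1, 71.5% of HK1 and 69.6% of PFKFB2. For HK2, EGLN1 and ENO1 protein-coding transcripts held 100%, 99.5% and 99.2%. For P4HA2, PFKFB3 and EPAS1 they held 24.6%, 28.3% and 33.1%. The leading transcript of ANKRD37 lies for 63.0% of its length under exons of UFSP2 on the other strand, and that of PFKFB2 for 57.2% under exons of YOD1. These are values for all samples together, and no comparison between the groups was made of them. The genes were chosen after their values were seen.

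EGLN3, a hydroxylase that low oxygen induces, had 7 counts over the 6 samples. Its annotated pseudogene had 22, 5 and 4 counts in knockdown and 6, 6 and 4 counts in control samples.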
